A study of Mus musculus with 24 samples.

Results

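Mitochondrial protein import and quality control was followed through 49 genes in the inguinal fat pad of mice, a white adipose tissue under the skin (IWAT). The genes were chosen by name, as the table rows whose symbol began with Timm, Tomm or Chchd together with 16 listed symbols for matrix chaperones, proteases, the processing peptidase, the prohibitins and the proteins of mitochondrial fusion and fission. They made up 49 of the 16821 genes in the deposited table, and 48 of the 15176 genes with enough reads to test. The member left out was Timm8a2, with 75 reads in all libraries together. Every number below for a member comes from counts of reads at the 3′ end of polyadenylated transcripts, given as CPM (counts scaled by library total), a level that does not grow with transcript length.

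The tissue came from male C57BL6/J mice on 4 diets, with 6 libraries per diet, each from its own mouse by the mouse numbers in the labels. Elemental MR mice ate elemental amino acids with methionine restricted (MR) to 0.17%, and elemental control mice ate the same protein source with 0.86% methionine. Oxidized casein MR mice ate casein whose methionine had been destroyed by oxidation, brought to 0.17% methionine, and casein control mice ate intact casein with 0.86% methionine. Diets began at an age of 5 weeks and lasted 12 weeks, and tissue was taken at 4 months after 4 h without food. The study names 8 mice per diet, of which 6 per diet are analysed here, and p-values measure the spread between these mice.

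Nearly all mitochondrial proteins are made in the cytosol and threaded through the TOM complex of the outer membrane. From there the TIM23 complex passes proteins with a cleavable leader into the matrix, the TIM22 complex and the small TIM chaperones serve membrane carriers, and a disulfide relay traps small proteins in the space between the membranes. Matrix chaperones fold the imported chains, the processing peptidase trims them, and a set of proteases removes those that fail. In adipose tissue this machinery is known mainly from brown and beige adipocytes, whose mitochondria are abundant and rich in cristae.

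Library totals ran from 7468336 to 19868913 reads. The 8 white adipocyte markers were all detected and summed to between 19762 and 60629.8 CPM per library, while the 6 hepatocyte markers summed to between 59.1 and 8640 CPM, the higher sum in elemental control library 6; the series design text speaks of the liver, and its title and sample labels of IWAT. Lymph node transcripts split the libraries: 15 had a mean B cell marker level of 4.76 or more on the log2 CPM scale, and 9 had 2.66 or less. Those with the transcripts were 5 of 6 elemental MR, 4 of 6 elemental control, 2 of 6 oxidized casein MR and 4 of 6 casein control libraries. All 10 B cell markers were detected, summing to 22.7 to 793 CPM in elemental MR, 15.2 to 737 in elemental control, 11.5 to 757 in oxidized casein MR and 14.4 to 1134 in casein control libraries. The 9 skeletal muscle markers reached 6031 CPM in elemental MR library 2 and 13479 CPM in elemental control library 2, against at most 891 CPM in oxidized casein MR and 414 CPM in casein control libraries. In bulk tissue, fewer cells of a type and less RNA per cell cannot be told apart.

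Promoter sequence was at hand for 42 of the 49 members, as 48 windows from 250 bases before to 50 bases after a start site (RefSeq, GRCm38.p6). These windows were searched on both strands for motifs of factors known to control nuclear genes of mitochondria, to count the windows that held each motif. The motif of NRF1, GCGCA, any base, then GCGC, lay in 6 of the 48 windows (12.5%), against 4.6% of the 32851 windows of all genes. The ETS motif of GABPA (NRF2), CCGGAAGT, lay in 11 of the 48 (22.9%), against 3.89% of all windows. The estrogen-related receptor motif TCAAGGTCA lay in 1 (2.08%), against 0.423%, and the cyclic AMP response element TGACGTCA lay in 0, against 1.79%. A window was counted once per motif, whichever strand matched. NRF1 matches lay in windows of Chchd4, Hspd1, Opa1, Phb, Timm8b and Tomm20, and ETS matches in those of Chchd5, Mfn1, Phb2, Pmpcb, Timm10, Timm10b, Timm23, Timm29, Timm8a2, Timmdc1 and Tomm70a. As examples, chosen with the matches known, 3 of the NRF1 stretches and the single estrogen-related receptor stretch are printed with the motif in capitals, followed by one from Chchd10, the member with the largest fold change, which held none of the 4 motifs. The Hspd1 stretch, minus strand of chr1:55088283-55088312, lies before a start of Hspd1. Hspe1, the partner chaperone on the plus strand, starts 95 bases from that start, and the stretch lies after its start. The Hspe1 window itself held 0 NRF1 matches. The others are Opa1 at chr16:29579240-29579319 on the plus strand, Chchd4 at chr6:91473575-91473654 on the minus strand, Timm8b at chr9:50603770-50603848 on the plus strand, and the 120 bases before the start of Chchd10 at chr10:75933010-75933129 on the plus strand. The Chchd4 match lies on the strand opposite to the one printed, so its capitals are the reverse complement of the motif. A match is a run of letters and says nothing of whether a factor was bound.
Hspd1, NRF1 motif: gccgcgcagcGCGCAGGCGCactcagcccc
Opa1, NRF1 motif: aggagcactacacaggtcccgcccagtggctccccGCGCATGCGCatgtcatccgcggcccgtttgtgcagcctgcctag
Chchd4, NRF1 motif: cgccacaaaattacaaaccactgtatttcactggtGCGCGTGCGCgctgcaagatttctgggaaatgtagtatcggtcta
Timm8b, estrogen-related receptor motif: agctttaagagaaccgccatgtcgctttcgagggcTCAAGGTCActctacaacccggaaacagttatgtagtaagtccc
Chchd10, no motif: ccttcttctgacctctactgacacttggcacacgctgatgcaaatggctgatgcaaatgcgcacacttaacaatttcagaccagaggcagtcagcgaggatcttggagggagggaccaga

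Methionine restriction was tested within each protein source with edgeR's quasi-likelihood test, with p-values adjusted by Benjamini-Hochberg over all 15176 genes and called at 0.05. On casein, 13 of the 48 tested members rose and 0 fell, where 3.35% of all genes were called higher and 0.461% lower. Their fold changes ran from 1.37 for Clpp to 4.19 for Chchd10. All 6 oxidized casein MR libraries lay above all 6 casein control libraries for 13 members, where 2.27% of all genes did so, among them the uncalled Chchd4, Opa1, Phb2, Timmdc1 and Tomm7. An unadjusted p under 0.05 was reached by 32 members that were higher and by 1 that was lower, Tomm34, where 9.67% of all genes were higher and 6.4% lower at that p. The median log2 fold change over the members was 0.38, against -0.06 over all genes, and 46 of 48 members were higher, against 41.9% of all genes. Leaving out 1 library at a time gave 8 calls without casein control library 6 or oxidized casein MR library 1 and 21 without elemental control library 1. In these fits 278 of 15361, 325 of 15418 and 627 of 15431 genes were called higher, in that order. Afg3l2, Chchd10, Chchd3, Hspa9, Timm13, Timm50 and Tomm40 were called in all 24 repeats. Repeats that left out an elemental library kept both casein groups whole and acted only through the rest of the model, such as the shared estimate of spread.

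On elemental amino acids, 0 of the 48 members passed the adjusted threshold, where 0.217% of all genes were called higher and 0.0264% lower. DESeq2 called 5, where 153 of 16686 genes were called higher, and limma voom called 0. An unadjusted p under 0.05 was reached by 23 members, all of them higher, where 5.08% of all genes were higher at that p. The smallest adjusted p-values were those of Timm50 (0.0785), Hspa9 (0.0945) and Chchd3 (0.121). The elemental MR libraries lay wholly above the elemental control libraries for 2 members, Timm50 and Hspd1, where 0.573% of all genes did so. The median log2 fold change was 0.28, against -0.02 over all genes, and 46 members were higher, against 46.1% of all genes. Without elemental control library 1, which had the highest mean member level of its group, 9 members were called. There 205 of 15431 genes were called higher, and no other single library left out gave a call among the members.

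The comparisons on elemental amino acids and on casein share no library. In both, 46 of the 48 members were higher, where 24.3% of all genes were. An unadjusted p under 0.05 in both was reached by 19 members, all higher on both protein sources, where 3.8% of all genes were. These were 19 of the 23 members at that p on elemental amino acids and 19 of the 32 on casein. No member had separate libraries on both protein sources, where 0.237% of all genes did. The difference between the MR effects, casein minus elemental, passed for 0 of 48 members and for 0% of all genes. At an unadjusted p under 0.05 that difference held 1 member, Chchd10, where 2.1% of all genes were higher at that p, and DESeq2 and limma voom each called 0 members.

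**Figure D1:**
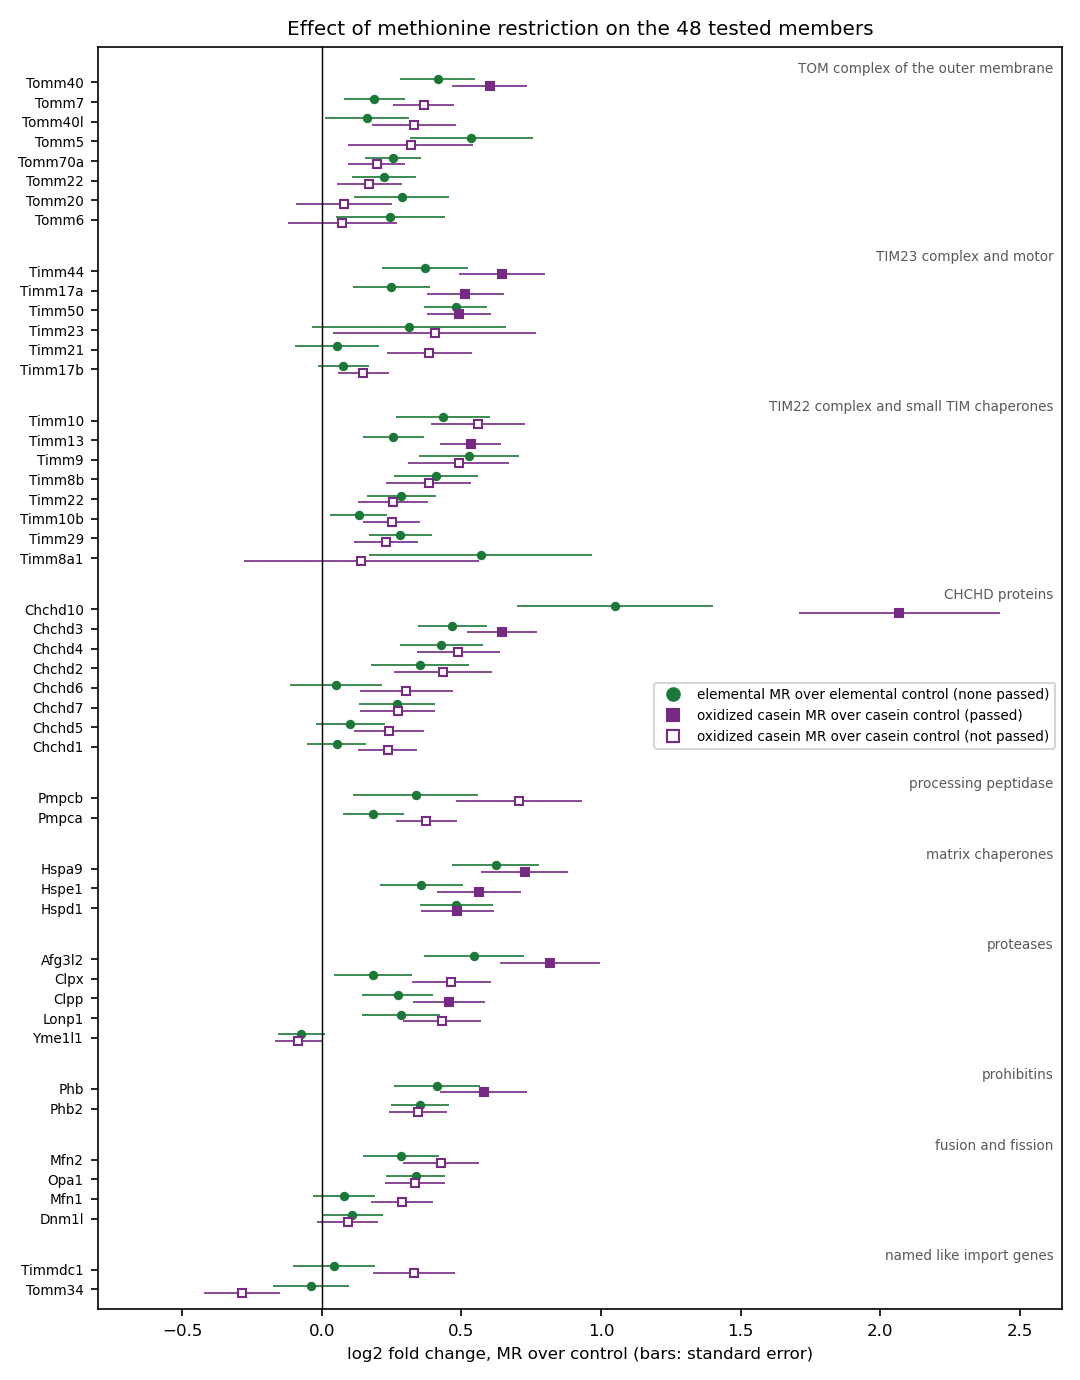
Log2 fold changes of the 48 tested members, MR over control, with bars for the standard error (n = 6 mice per diet), grouped by role. Circles are elemental MR over elemental control and squares are oxidized casein MR over casein control, filled for the 13 members past the threshold. All but 2 members lie right of 0 on each protein source, and Chchd10 lies farthest right.

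Of the TOM complex, the entry gate of the outer membrane, 8 members were tested. A single member passed on casein, Tomm40, and 3 had an unadjusted p under 0.05 there, as did 3 on elemental amino acids. Among all genes, 3.35% were called higher on casein and 0.217% on elemental amino acids. At an unadjusted p under 0.05, 9.67% and 5.08% of all genes were higher, in that order. These shares stand beside the counts of every role below. The median log2 fold change of the 8 was 0.25 on elemental amino acids and 0.26 on casein. Tomm40, on chromosome 7 from 19701313 to 19715438 on the minus strand, encodes the pore through which precursors pass. Its lowest, median and highest levels were 68, 84.4 and 95.2 CPM in elemental MR mice, against 49.8, 61.9 and 74.4 CPM in elemental control mice. On casein, Tomm40 reached 68.8, 81 and 84.8 CPM in oxidized casein MR mice, against 33.3, 52.9 and 72.4 CPM in casein control mice. The MR groups sat above their controls in median on both sources, and the highest library of each control group reached into the range of its MR group. The log2 fold change of Tomm40, MR over control, was 0.41 ± 0.13 (adjusted p = 0.232) on elemental amino acids and 0.60 ± 0.14 (adjusted p = 0.0113) on casein, a 1.52-fold difference on casein. The receptors that first bind precursors gave smaller values and did not pass. Tomm20, a receptor for precursors with a leader sequence, had medians of 14.1 CPM in elemental MR mice, 11.4 in elemental control mice, 12.1 in oxidized casein MR mice and 10.6 in casein control mice, with log2 fold changes of 0.29 ± 0.17 (adjusted p = 0.620) on elemental amino acids and 0.08 ± 0.17 (adjusted p = 0.855) on casein. Of the 50-base windows at the 3′ end of Tomm20, 22.5% also occur in other genes, so its count is uncertain. Tomm22, the central receptor that also holds the complex together, had medians of 56.4 CPM in elemental MR mice, 49.1 in elemental control mice, 52 in oxidized casein MR mice and 47.1 in casein control mice, with log2 fold changes of 0.22 ± 0.12 (adjusted p = 0.535) on elemental amino acids and 0.17 ± 0.12 (adjusted p = 0.5) on casein. Neither receptor passed on either protein source. Tomm70a, the receptor for carrier proteins, had medians of 70.7 CPM in elemental MR mice, 58.9 in elemental control mice, 60.2 in oxidized casein MR mice and 51.8 in casein control mice, with log2 fold changes of 0.26 ± 0.10 (adjusted p = 0.338) on elemental amino acids and 0.20 ± 0.10 (adjusted p = 0.342) on casein. Among the rest, Tomm7, a small subunit, was higher in every oxidized casein MR library than in any casein control library, with a log2 fold change of 0.36 ± 0.11 (adjusted p = 0.0636). Tomm5, Tomm6 and the pore paralog Tomm40l ranged from 0.07 to 0.33 on casein and from 0.16 to 0.54 on elemental amino acids, none past the threshold. Tomm6 shares 77.7% and Tomm40l 30.5% of such 3′ windows with other genes. The 3′ ends of Tomm70a and Tomm6 also overlap genes on the other strand, whose reads may be among these counts.

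The TIM23 complex, the inner membrane channel for proteins with a leader, and its import motor gave 3 members past the threshold on casein out of 6. They were Timm44, Timm17a and Timm50. The 6 had a median log2 fold change of 0.28 on elemental amino acids, where 2 had an unadjusted p under 0.05, and of 0.45 on casein, where 4 had one. Timm50, on chromosome 7 from 28305516 to 28312072 on the minus strand, encodes the receptor that hands precursors from TOM to TIM23. In elemental MR mice the lowest, median and highest levels of Timm50 were 47.6, 54.4 and 62.5 CPM, against 33.1, 38.7 and 45.6 CPM in elemental control mice. On casein, Timm50 reached 42.4, 51 and 56.2 CPM in oxidized casein MR mice, against 28.9, 34.7 and 44.1 CPM in casein control mice. On elemental amino acids the groups were separate, and on casein the casein control range reached into the MR range. MR over control, the log2 fold change was 0.48 ± 0.11 (adjusted p = 0.0785) on elemental amino acids, and on casein 0.49 ± 0.11 (adjusted p = 0.0139), which is 1.41-fold. Timm44, on chromosome 8 from 4259731 to 4275913 on the minus strand, encodes the platform that ties the import motor to the channel. Levels of Timm44 (lowest, median, highest) were 50.8, 57.8 and 77.4 CPM in elemental MR mice, against 38.5, 45.4 and 60.4 CPM in elemental control mice. On casein, Timm44 reached 37.7, 46.5 and 59.2 CPM in oxidized casein MR mice, against 16.9, 32.1 and 34.6 CPM in casein control mice. The casein groups were separate, with casein control library 5 far below the rest of its group, and the elemental groups overlapped. Timm44 had log2 fold changes, MR over control, of 0.37 ± 0.15 (adjusted p = 0.380) on elemental amino acids and 0.64 ± 0.16 (adjusted p = 0.0176) on casein, 1.56-fold there. Timm17a, on chromosome 1 from 135295213 to 135313778 on the minus strand, encodes a channel subunit. Timm17a was counted at 78, 99.3 and 112 CPM (lowest, median, highest) in elemental MR mice, against 58.9, 86.5 and 91.1 CPM in elemental control mice. On casein, Timm17a reached 81, 87.2 and 98.4 CPM in oxidized casein MR mice, against 41.5, 59.1 and 84.5 CPM in casein control mice. Both pairs of groups overlapped. For Timm17a the log2 fold change, MR over control, came to 0.25 ± 0.14 (adjusted p = 0.572) on elemental amino acids and 0.51 ± 0.14 (adjusted p = 0.0328) on casein, 1.43-fold on casein. Timm23, the channel subunit that names the complex, had medians of 1.94 CPM in elemental MR mice, 1.41 in elemental control mice, 1.26 in oxidized casein MR mice and 1.07 in casein control mice, with log2 fold changes of 0.31 ± 0.35 (adjusted p = 0.887) on elemental amino acids and 0.40 ± 0.36 (adjusted p = 0.621) on casein. Timm23 is uncertain, because 95.7% of its 3′ windows occur in another gene as well, and its level was low. The channel paralog Timm17b and Timm21, which couples the complex to the respiratory chain, had log2 fold changes of 0.15 ± 0.09 (adjusted p = 0.436) and 0.39 ± 0.15 (adjusted p = 0.187) on casein. Timm44 held its call on casein in 23 of 24 repeats that each left out 1 library, losing it without oxidized casein MR library 1 (adjusted p = 0.0706). Timm17a held its call in 18 of 24, losing it without any of oxidized casein MR libraries 1 and 5 or casein control libraries 1, 2, 3 and 6 (adjusted p up to 0.093). Of the 3′ windows of Timm17a, 15.4% also occur in another gene.

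The TIM22 complex inserts carriers into the inner membrane, and the small TIM proteins keep carriers soluble on their way there. Of 8 tested members, Timm13 passed on casein. An unadjusted p under 0.05 was reached by 6 on elemental amino acids and 5 on casein, and the median log2 fold change was 0.35 on elemental amino acids and 0.32 on casein. Timm13, on chromosome 10 from 80899450 to 80900969 on the minus strand, encodes a small TIM chaperone that works with Timm8 proteins. Its lowest, median and highest levels were 79.2, 98.7 and 122 CPM in elemental MR mice, against 71.6, 84 and 98.8 CPM in elemental control mice. On casein, Timm13 reached 80.1, 89.4 and 109.8 CPM in oxidized casein MR mice, against 55.3, 63.1 and 73.2 CPM in casein control mice. All 6 oxidized casein MR mice stood above all 6 casein control mice, whereas the elemental groups overlapped. The log2 fold change of Timm13, MR over control, was 0.26 ± 0.11 (adjusted p = 0.385) on elemental amino acids and 0.53 ± 0.11 (adjusted p = 0.00706) on casein, a 1.45-fold difference on casein. Timm8b, a small TIM protein, had medians of 123 CPM in elemental MR mice, 87.8 in elemental control mice, 99.5 in oxidized casein MR mice and 77.3 in casein control mice, with log2 fold changes of 0.41 ± 0.15 (adjusted p = 0.305) on elemental amino acids and 0.38 ± 0.15 (adjusted p = 0.191) on casein. Timm9, which forms rings with Timm10, had medians of 68.7 CPM in elemental MR mice, 43.6 in elemental control mice, 51.1 in oxidized casein MR mice and 35.4 in casein control mice, with log2 fold changes of 0.53 ± 0.18 (adjusted p = 0.261) on elemental amino acids and 0.49 ± 0.18 (adjusted p = 0.149) on casein. Timm9 and Timm10, partners in the same ring, were both higher in median under MR on each protein source. Timm10, the other ring protein, had medians of 38.5 CPM in elemental MR mice, 25.6 in elemental control mice, 28.1 in oxidized casein MR mice and 18 in casein control mice, with log2 fold changes of 0.43 ± 0.17 (adjusted p = 0.327) on elemental amino acids and 0.56 ± 0.17 (adjusted p = 0.0646) on casein. Timm22, the channel for carriers, had medians of 26.5 CPM in elemental MR mice, 23.3 in elemental control mice, 24.7 in oxidized casein MR mice and 20.1 in casein control mice, with log2 fold changes of 0.28 ± 0.12 (adjusted p = 0.414) on elemental amino acids and 0.26 ± 0.12 (adjusted p = 0.315) on casein. None of these 4 passed on either protein source. Timm8a1 was the least abundant tested member, with means under 1 CPM in every diet, and its log2 fold change on casein was 0.14 ± 0.42 (adjusted p = 0.8996). The 3′ ends of Timm13, Timm9 and Timm8b, like those of Chchd10, Tomm70a, Tomm6 and Pmpca, overlap genes on the other strand. Since the strand setting of the counting is not given in the sources used here, reads of the neighbours cannot be told apart.

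The CHCHD proteins carry a fold held by disulfide bonds and lie between the membranes, in the cristae junctions or in the mitochondrial ribosome. Of the 8, Chchd10 and Chchd3 passed on casein, and 5 had an unadjusted p under 0.05 there, against 3 on elemental amino acids. Their median log2 fold change was 0.31 on elemental amino acids and 0.37 on casein. Chchd10, on chromosome 10 from 75933130 to 75937747 on the plus strand, encodes a small protein between the membranes whose human gene is mutated in a motor neuron and muscle disease. In elemental MR mice the lowest, median and highest levels of Chchd10 were 1434, 1791 and 2653 CPM, against 359, 883 and 1472 CPM in elemental control mice. On casein, Chchd10 reached 1004, 1353 and 1669.8 CPM in oxidized casein MR mice, against 110.1, 267 and 569 CPM in casein control mice. Every oxidized casein MR mouse had more than any casein control mouse, and the elemental MR mice overlapped only the top of the elemental control range. MR over control, the log2 fold change was 1.05 ± 0.35 (adjusted p = 0.249) on elemental amino acids, and on casein 2.07 ± 0.36 (adjusted p = 0.00318), which is 4.19-fold. On elemental amino acids that is a 2.07-fold difference. The 3′ end of Chchd10 overlaps a gene on the other strand, whose reads may be among these counts. The difference between both effects was 1.02 ± 0.49 (adjusted p = 0.910), by edgeR. No other member had an unadjusted p under 0.05 there, where 2.1% of all genes were higher at that p. Chchd10 and Chchd3 kept their calls on casein in 24 of 24 repeats that left out 1 library. Chchd3, on chromosome 6 from 32790976 to 33060260 on the minus strand, encodes a subunit of MICOS, the complex that shapes cristae junctions. Levels of Chchd3 (lowest, median, highest) were 113, 131 and 159 CPM in elemental MR mice, against 77.5, 98.1 and 114 CPM in elemental control mice. On casein, Chchd3 reached 93.3, 97.3 and 121 CPM in oxidized casein MR mice, against 48.001, 66.2 and 81.4 CPM in casein control mice. The casein groups were separate, and the elemental groups shared a value range only at their edge. Chchd3 had log2 fold changes, MR over control, of 0.47 ± 0.12 (adjusted p = 0.121) on elemental amino acids and 0.65 ± 0.12 (adjusted p = 0.00543) on casein, 1.56-fold there. Chchd4, the oxidoreductase that drives the disulfide relay, had medians of 32 CPM in elemental MR mice, 22.3 in elemental control mice, 27.7 in oxidized casein MR mice and 19.9 in casein control mice, with log2 fold changes of 0.43 ± 0.15 (adjusted p = 0.274) on elemental amino acids and 0.49 ± 0.15 (adjusted p = 0.0706) on casein. All oxidized casein MR libraries exceeded all casein control libraries for Chchd4, but it did not pass. Chchd2, the paralog of Chchd10, was the most abundant member, with means of 3117 ± 572 CPM in elemental MR, 2442 ± 611 in elemental control, 3313 ± 214 in oxidized casein MR and 2451 ± 676 in casein control mice (SD, n = 6 each). Its log2 fold change on casein, 0.44 ± 0.17 (adjusted p = 0.199), did not pass. Of the 3′ windows of Chchd2, 23.5% also occur in other genes, so its count is uncertain. Chchd6, another MICOS subunit, Chchd1 of the mitochondrial ribosome, Chchd5 and Chchd7 ranged from 0.24 to 0.30 on casein, and none passed.

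**Figure D2:**
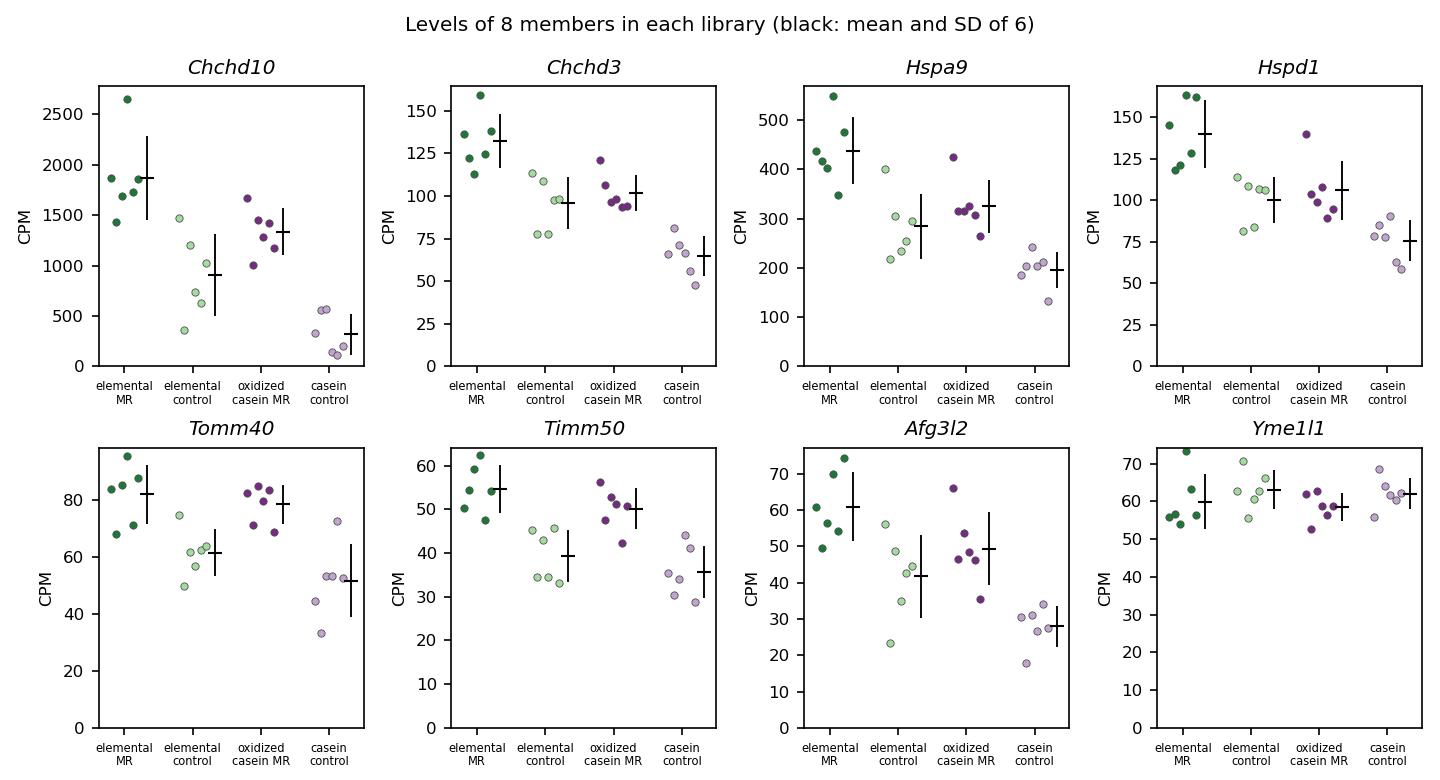
Level in CPM of 8 members in each library, with 6 libraries per diet, and the mean and SD in black, and each axis starts at 0. The MR libraries have the higher mean on the same protein source for the first 7 genes, most clearly for Chchd10, and Yme1l1 shows no such order.

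All 3 matrix chaperones rose on casein, with a median log2 fold change of 0.56, and all 3 had an unadjusted p under 0.05 on elemental amino acids, with a median of 0.48. Hspa9 encodes mortalin, the ATP-driven Hsp70 of the import motor. Hspa9 was counted at 347, 427 and 549 CPM (lowest, median, highest) in elemental MR mice, against 218, 275 and 400.5 CPM in elemental control mice. On casein, Hspa9 reached 264, 315 and 426 CPM in oxidized casein MR mice, against 133, 204 and 242 CPM in casein control mice. The casein groups were separate, and the elemental groups overlapped. For Hspa9 the log2 fold change, MR over control, came to 0.62 ± 0.16 (adjusted p = 0.0945) on elemental amino acids and 0.73 ± 0.16 (adjusted p = 0.00919) on casein, 1.66-fold on casein. Hspd1, on chromosome 1 from 55077835 to 55088243 on the minus strand, encodes the barrel-shaped chaperonin Hsp60. Its lowest, median and highest levels were 118, 137 and 164 CPM in elemental MR mice, against 81.5, 107 and 114 CPM in elemental control mice. On casein, Hspd1 reached 89.7, 102 and 140.0 CPM in oxidized casein MR mice, against 58.8, 78.2 and 90.7 CPM in casein control mice. The elemental groups were separate, and the casein groups overlapped narrowly. The log2 fold change of Hspd1, MR over control, was 0.48 ± 0.13 (adjusted p = 0.129) on elemental amino acids and 0.49 ± 0.13 (adjusted p = 0.0326) on casein, a 1.40-fold difference on casein. Hspe1, on chromosome 1 from 55088132 to 55091307 on the plus strand, encodes Hsp10, the lid of the Hsp60 barrel. In elemental MR mice the lowest, median and highest levels of Hspe1 were 73.8, 88 and 117 CPM, against 49.3, 69.1 and 108 CPM in elemental control mice. On casein, Hspe1 reached 71, 82 and 100.1 CPM in oxidized casein MR mice, against 46.2, 57.3 and 62.1 CPM in casein control mice. Every oxidized casein MR mouse had more than any casein control mouse, and the elemental groups overlapped. MR over control, the log2 fold change was 0.36 ± 0.15 (adjusted p = 0.383) on elemental amino acids, and on casein 0.56 ± 0.15 (adjusted p = 0.0313), which is 1.48-fold. Of their 3′ windows, 39.2% for Hspd1 and 43.8% for Hspe1 also occur in other genes, pseudogenes among them. Hspa9 kept its call on casein in 24 of 24 repeats without 1 library, and Hspd1 and Hspe1 each in 20 of 24. Hspd1 lost it without any of oxidized casein MR library 1 or casein control libraries 1, 5 and 6 (adjusted p up to 0.1), and Hspe1 without any of casein control libraries 1, 3, 4 and 6 (adjusted p up to 0.0935).

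The processing peptidase, which cuts the leader from imported chains, has a pair of subunits, and neither passed on either protein source. Pmpca, the subunit that binds the leader, had medians of 48.6 CPM in elemental MR mice, 45.3 in elemental control mice, 44.6 in oxidized casein MR mice and 33.7 in casein control mice, with log2 fold changes of 0.18 ± 0.11 (adjusted p = 0.611) on elemental amino acids and 0.37 ± 0.11 (adjusted p = 0.0560) on casein. Pmpcb, the catalytic subunit, had medians of 153 CPM in elemental MR mice, 129 in elemental control mice, 131 in oxidized casein MR mice and 92.5 in casein control mice, with log2 fold changes of 0.34 ± 0.22 (adjusted p = 0.677) on elemental amino acids and 0.71 ± 0.23 (adjusted p = 0.0859) on casein. Casein control library 2 held 25.1 CPM of Pmpcb, the lowest of all libraries, and the SE of this gene was the larger of the pair. In the MR effect averaged over both protein sources, both passed, Pmpca with 0.28 ± 0.08 (adjusted p = 0.0264) and Pmpcb with 0.52 ± 0.16 (adjusted p = 0.0477), and Pmpcb kept that call in 10 of 24 repeats without 1 library. Pmpcb lost it (adjusted p up to 0.089) without any of elemental MR libraries 1, 2, 4 and 6, oxidized casein MR libraries 1, 2, 3 and 5, elemental control libraries 2, 4, 5 and 6 or casein control libraries 1 and 6. Of the 3′ windows of Pmpca, 50% also occur in Inpp5e, a gene that overlaps it on the other strand.

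Among the 5 members of the mitochondrial proteases, Afg3l2 and Clpp passed on casein and 4 had an unadjusted p under 0.05 there, against 2 on elemental amino acids. Afg3l2 encodes the inner membrane protease that faces the matrix. Levels of Afg3l2 (lowest, median, highest) were 49.5, 58.6 and 74.4 CPM in elemental MR mice, against 23.5, 43.7 and 56.2 CPM in elemental control mice. On casein, Afg3l2 reached 35.4, 47.4 and 66 CPM in oxidized casein MR mice, against 17.8, 29.1 and 34.1 CPM in casein control mice. The casein groups were separate, and the elemental groups overlapped. Afg3l2 had log2 fold changes, MR over control, of 0.55 ± 0.18 (adjusted p = 0.234) on elemental amino acids and 0.82 ± 0.18 (adjusted p = 0.0104) on casein, 1.76-fold there. Afg3l2 kept its call on casein in 24 of 24 repeats without 1 library. Clpp, on chromosome 17 from 56990305 to 56996188 on the plus strand, encodes the proteolytic chamber of the matrix protease ClpXP. Clpp was counted at 45.9, 58.5 and 69.3 CPM (lowest, median, highest) in elemental MR mice, against 35.5, 48.7 and 62.3 CPM in elemental control mice. On casein, Clpp reached 46, 56.9 and 62.6 CPM in oxidized casein MR mice, against 32.3, 39.4 and 49.4 CPM in casein control mice. Both pairs of groups overlapped. For Clpp the log2 fold change, MR over control, came to 0.27 ± 0.13 (adjusted p = 0.471) on elemental amino acids and 0.46 ± 0.13 (adjusted p = 0.0439) on casein, 1.37-fold on casein. Clpp kept its call in 14 of 24 such repeats, losing it without any of oxidized casein MR libraries 1, 2 and 4, elemental control libraries 5 and 6 or casein control libraries 1, 3, 4, 5 and 6 (adjusted p up to 0.128). Clpx, which unfolds substrates for Clpp, had medians of 31 CPM in elemental MR mice, 29.97 in elemental control mice, 31.1 in oxidized casein MR mice and 23.6 in casein control mice, with log2 fold changes of 0.18 ± 0.14 (adjusted p = 0.743) on elemental amino acids and 0.46 ± 0.14 (adjusted p = 0.0693) on casein. Lonp1, the matrix protease that removes oxidized proteins, had medians of 81.4 CPM in elemental MR mice, 67.8 in elemental control mice, 74.2 in oxidized casein MR mice and 55.5 in casein control mice, with log2 fold changes of 0.28 ± 0.14 (adjusted p = 0.506) on elemental amino acids and 0.43 ± 0.14 (adjusted p = 0.0906) on casein. Yme1l1, the inner membrane protease that faces the space between the membranes, had medians of 56.5 CPM in elemental MR mice, 62.6 in elemental control mice, 58.7 in oxidized casein MR mice and 61.9 in casein control mice, with log2 fold changes of -0.07 ± 0.08 (adjusted p = 0.891) on elemental amino acids and -0.08 ± 0.08 (adjusted p = 0.654) on casein. Neither Clpx nor Lonp1 passed. Yme1l1 was the only protease with a negative log2 fold change on both protein sources, and its groups overlapped in both.

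The prohibitins form a ring in the inner membrane that scaffolds the proteases facing the matrix, and Phb passed on casein. Phb, on chromosome 11 from 95666957 to 95680773 on the plus strand, encodes the first of the pair. Its lowest, median and highest levels were 40.1, 51.8 and 65.4 CPM in elemental MR mice, against 30.5, 38.4 and 51.8 CPM in elemental control mice. On casein, Phb reached 36.5, 41.2 and 55.5 CPM in oxidized casein MR mice, against 18.2, 30.9 and 33.3 CPM in casein control mice. The casein groups were separate, and the elemental groups overlapped. The log2 fold change of Phb, MR over control, was 0.41 ± 0.15 (adjusted p = 0.310) on elemental amino acids and 0.58 ± 0.15 (adjusted p = 0.0323) on casein, a 1.495-fold difference on casein. Phb kept its call in 21 of 24 repeats without 1 library, losing it without any of oxidized casein MR library 1 or casein control libraries 2 and 6 (adjusted p up to 0.0903), and 50% of its 3′ windows occur in other genes. Phb2, its partner, had medians of 194 CPM in elemental MR mice, 149 in elemental control mice, 159 in oxidized casein MR mice and 128 in casein control mice, with log2 fold changes of 0.35 ± 0.10 (adjusted p = 0.176) on elemental amino acids and 0.34 ± 0.10 (adjusted p = 0.0676) on casein. Every oxidized casein MR mouse exceeded every casein control mouse for Phb2, which did not pass.

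None of the 4 fusion and fission genes passed on either protein source, and their median log2 fold change was 0.20 on elemental amino acids and 0.31 on casein. Opa1, which fuses inner membranes and holds cristae junctions, had medians of 62.8 CPM in elemental MR mice, 47.5 in elemental control mice, 49.5 in oxidized casein MR mice and 40.6 in casein control mice, with log2 fold changes of 0.34 ± 0.11 (adjusted p = 0.216) on elemental amino acids and 0.33 ± 0.11 (adjusted p = 0.0855) on casein. The oxidized casein MR mice lay wholly above the casein control mice for Opa1. Mfn2, which fuses outer membranes and tethers mitochondria to other membranes, had medians of 139.6 CPM in elemental MR mice, 114 in elemental control mice, 131 in oxidized casein MR mice and 93.1 in casein control mice, with log2 fold changes of 0.28 ± 0.14 (adjusted p = 0.481) on elemental amino acids and 0.43 ± 0.14 (adjusted p = 0.0848) on casein. Mfn1, the other outer membrane fusion protein, had medians of 23.2 CPM in elemental MR mice, 21.3 in elemental control mice, 22.6 in oxidized casein MR mice and 18.2 in casein control mice, with log2 fold changes of 0.08 ± 0.11 (adjusted p = 0.939) on elemental amino acids and 0.29 ± 0.11 (adjusted p = 0.177) on casein. Fusion genes were higher in median under MR on both protein sources, without a call. Dnm1l, the motor of fission, had medians of 34.3 CPM in elemental MR mice, 32.5 in elemental control mice, 27.4 in oxidized casein MR mice and 25.8 in casein control mice, with log2 fold changes of 0.11 ± 0.11 (adjusted p = 0.857) on elemental amino acids and 0.09 ± 0.11 (adjusted p = 0.713) on casein. Medians of Dnm1l differed less between MR and control than between protein sources. A pair of members is named like import genes without being part of the machinery. Tomm34, a cytosolic co-chaperone, had a log2 fold change of -0.29 ± 0.14 (adjusted p = 0.306) on casein, the only member with an unadjusted p under 0.05 that was lower. Timmdc1, an assembly factor of respiratory complex I, had 0.33 ± 0.15 (adjusted p = 0.258) there, and all its oxidized casein MR libraries exceeded all casein control libraries.

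The MR effect averaged over both protein sources uses all 24 libraries of the comparisons above, so it adds precision and no independent evidence. In it, 25 of 48 members rose and 0 fell, where 5.23% of all genes were called higher and 1.76% lower. The median log2 fold change was 0.35, against -0.07 over all genes. The smallest adjusted p-values were those of Chchd3, 0.56 ± 0.09 (adjusted p = 0.000375), and Chchd10, 1.56 ± 0.25 (adjusted p = 0.000520). Hspa9 followed with 0.68 ± 0.11 (adjusted p = 0.000531), Timm50 with 0.49 ± 0.08 (adjusted p = 0.000616) and Afg3l2 with 0.68 ± 0.13 (adjusted p = 0.00149). Passing here and not on casein alone were the import members Tomm7, Timm8b, Timm9, Timm10 and Chchd4, both processing peptidase subunits, Clpx, Lonp1, Phb2, Opa1 and Mfn2, with log2 fold changes from 0.28 for Tomm7 to 0.52 for Pmpcb. Clpx kept its call in 10 of 24 repeats without 1 library, losing it (adjusted p up to 0.0875) without any of elemental MR libraries 4 and 6, oxidized casein MR libraries 1, 2, 3, 4 and 6, elemental control libraries 2, 4 and 5 or casein control libraries 1, 2, 3 and 6. Tomm7 lost its call without elemental control library 4. The receptors Tomm20 and Tomm22, the fission motor Dnm1l and the protease Yme1l1 did not pass, with Yme1l1 at -0.08 ± 0.06 (adjusted p = 0.516).

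Protein source was compared at matched methionine. At 0.86% methionine, casein control against elemental control, 2 of 48 members fell, Chchd10 and Chchd3, and 0 rose, where 0.646% of all genes were called lower and 0.0132% higher. Their log2 fold changes, casein control over elemental control, were -1.50 ± 0.35 (adjusted p = 0.0484) for Chchd10 and -0.56 ± 0.12 (adjusted p = 0.0341) for Chchd3. Chchd10 was 2.84-fold lower in casein control mice, with an overlap between the groups. An unadjusted p under 0.05 was reached by 21 members, all lower, where 9.54% of all genes were lower at that p. The casein control libraries lay wholly below the elemental control libraries for Timm44 and Dnm1l, where 0.751% of all genes did so. Altogether, 46 of 48 members were lower in casein control mice, against 46.4% of all genes, and the median log2 fold change was -0.27. Without elemental control library 1 that median was -0.17. All 9 skeletal muscle markers and all 6 hepatocyte markers were also lower at an unadjusted p under 0.05, none of them past the adjusted threshold. Their sums were 28.1 to 414 CPM in casein control against 39.3 to 13479 CPM in elemental control libraries for muscle, and 59.1 to 874 CPM in casein control against 170.1 to 8640 CPM in elemental control libraries for hepatocytes. Without the muscle-rich elemental MR library 2 and elemental control library 2, the members' median was -0.30 and 3 members passed. There 163 of 15116 genes were called lower. The part of hepatocyte transcripts was not tested. The count fell to 0 when elemental control library 1, 3, 5 or 6 or casein control library 1, 4 or 6 was left out. A single call, that of Chchd3, remained without any of elemental MR libraries 1, 2, 3, 5 and 6 or oxidized casein MR libraries 2 to 6, and there were 4 calls without elemental control library 4. Without casein control library 5 there were 3 calls, with Chchd3 and without Chchd10. Over all genes, 186 of 15236 were called lower without elemental control library 4 and 163 of 15258 without casein control library 5. These control groups also serve in the MR comparisons, and the values are not independent of those above.

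At 0.17% methionine, oxidized casein MR against elemental MR, 0 of 48 members passed, and 0% of all genes were called, while DESeq2 and limma voom each called 0 members. An unadjusted p under 0.05 was reached by 8 members, all lower in oxidized casein MR mice, where 3.14% of all genes were lower at that p. Only 4 of 48 members were higher in oxidized casein MR mice, against 45.6% of all genes. The median log2 fold change was -0.16, against -0.03 over all genes. The smallest p-values were those of Dnm1l, with a log2 fold change, oxidized casein MR over elemental MR, of -0.35 ± 0.11 (adjusted p = 0.636), Opa1 with -0.33 ± 0.11 (adjusted p = 0.636) and Hspd1 with -0.40 ± 0.13 (adjusted p = 0.636). For Opa1 the oxidized casein MR libraries lay wholly below the elemental MR libraries, where 0.204% of all genes did so. The mean log2 level over the 48 members ran from 5.57 to 5.90 in elemental MR libraries and from 5.18 to 5.72 in elemental control libraries. On casein it ran from 5.42 to 5.73 in oxidized casein MR libraries and from 4.88 to 5.27 in casein control libraries. The order of the medians was elemental MR, oxidized casein MR, elemental control and casein control, and of the pairs on 1 protein source the casein pair was separate and the elemental pair overlapped.

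**Figure D3:**
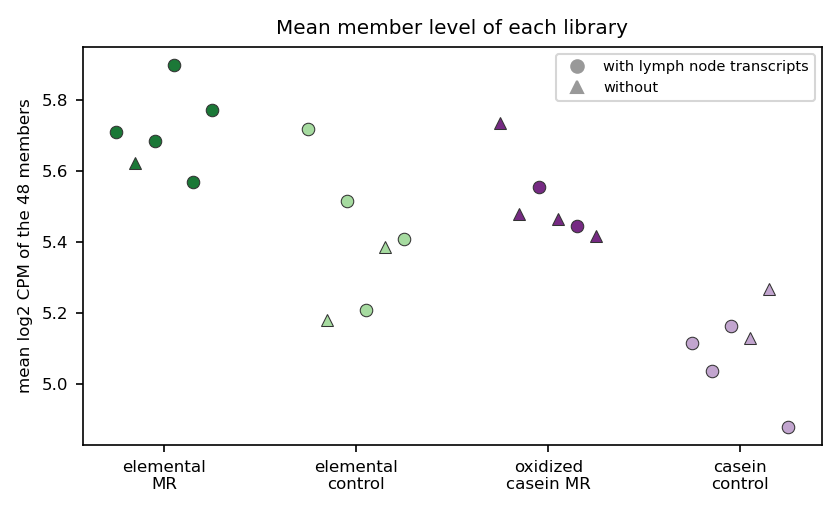
Mean log2 CPM of the 48 tested members in each library by diet, with circles for libraries with lymph node transcripts and triangles for those without. The oxidized casein MR libraries, from 5.42 to 5.73, lie above all casein control libraries, from 4.88 to 5.27, among circles and triangles alike.

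Marker levels of other cell types stand beside these results. The 8 thermogenic adipocyte markers, such as Ucp1, the uncoupling protein of brown and beige fat, were detected in every group and summed to 3257 to 6317 CPM in elemental MR libraries, against 380.3 to 3666 CPM in elemental control libraries. They summed to 956 to 4317 CPM in oxidized casein MR libraries, against 246 to 1340 CPM in casein control libraries. Their median sums, 4186 CPM in elemental MR, 2851 in oxidized casein MR, 1375 in elemental control and 458 in casein control libraries, had the order of the members' means, and the part of thermogenic adipocytes in the members' values was not tested. Of these markers, 4 of 8 passed on casein and 1 of 8, Kcnk3, on elemental amino acids. Among all genes, 3.35% and 0.217% were called higher, in that order. The 6 macrophage markers were all detected, with lower median sums in each MR group than in its control. They summed to 196 to 701 CPM (median 531) in elemental MR, against 430.4 to 750.2 (median 666) in elemental control libraries, and to 279 to 696 (median 412) in oxidized casein MR, against 499 to 801 (median 722) in casein control libraries. Cd68 passed on casein, 0 of the 6 passed on elemental amino acids, and Cd68 and C1qa passed in the averaged effect. The part of macrophages in the members' values was not tested. White adipocyte markers had median sums of 35567 CPM in elemental MR, 28582 in elemental control, 43532 in oxidized casein MR and 28994 in casein control libraries. Their ranges overlapped on both protein sources, 1 of the 8 passed on casein, higher, and 0 passed on elemental amino acids. At an unadjusted p under 0.05, 1 was higher and 1 lower on each protein source. In the averaged effect, 1 was called higher and 1 lower. The part of white adipocytes was not tested either. Among libraries with lymph node transcripts, 0 members passed on casein, where 0.032% of all genes were called higher, and the members' median log2 fold change was 0.36 (2 oxidized casein MR against 4 casein control libraries). There 22 members had an unadjusted p under 0.05, all higher, where 9.79% of all genes had one in either direction. Among libraries without them, 2 passed with a median of 0.31, where 0.474% of all genes were called higher (4 oxidized casein MR against 2 casein control libraries). At an unadjusted p under 0.05, 14 members were higher and 1 lower there, where 14.8% of all genes had one in either direction. With lymph node presence as a term over all libraries, 19 members passed on casein, where 4.54% of all genes were called higher, and 2 on elemental amino acids, where 0.685% were. For casein control against elemental control the median was -0.40 among libraries with the transcripts, where 5 members and 1.03% of all genes were called lower. It was -0.04 among those without, where 0 members and 0% of all genes were called lower and 20 of 48 members were higher. That last fit held only casein control libraries 4 and 5 and elemental control libraries 2 and 5, the muscle-rich elemental control library 2 among them. The part of lymph node content in this change was not tested. Without the 2 muscle-rich libraries, elemental MR 2 and elemental control 2, the median MR effect on elemental amino acids was 0.24, with 43 of 48 members higher.

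Genes that work with the members, taken from lists chosen by function, are given by their counts. Beside them, 3.35% of all genes were called higher on casein and 0.217% on elemental amino acids. At an unadjusted p under 0.05, 9.67% and 5.08% of all genes were higher, in that order. Of 16 import partners, 6 passed on casein, all higher, and 0 on elemental amino acids. At an unadjusted p under 0.05, 10 were higher on casein and 1 was lower, the lipid kinase Agk, with -0.53 ± 0.23 (adjusted p = 0.238), and 8 were higher on elemental amino acids. The median log2 fold change of the 16 was 0.36 on casein and 0.26 on elemental amino acids. Those that passed on casein included Grpel1, the nucleotide exchange factor of Hspa9, with 0.76 ± 0.14 (adjusted p = 0.00425) on casein, Dnajc15 and Pam16 of the import motor with 0.64 ± 0.12 (adjusted p = 0.00515) and 0.66 ± 0.16 (adjusted p = 0.0183), and Samm50, which inserts outer membrane barrels, with 0.64 ± 0.16 (adjusted p = 0.0192). Of 14 further quality control genes, 5 passed on casein and 0 on elemental amino acids (5 unadjusted), among them the co-chaperone Dnaja3 with 0.88 ± 0.18 (adjusted p = 0.00849) and Immt, the core of MICOS, with 0.53 ± 0.13 (adjusted p = 0.0223). Of 17 other genes of fission, fusion and mitophagy, Mul1 and Mtfp1 passed on casein, Mtfp1 with 1.56 ± 0.30 (adjusted p = 0.00543), and 0 passed on elemental amino acids (4 unadjusted).

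The respiratory chain subunits, which the import machinery brings in, had the largest medians of these functional lists. Of 26 nuclear subunits, 24 passed on casein, where 3.35% of all genes were called higher. Their median log2 fold change there was 0.77, against 0.38 for the members. On elemental amino acids 0 passed, and the median was 0.47. There 24 were higher at an unadjusted p under 0.05, where 5.08% of all genes were. Ndufb10 of complex I had 0.66 ± 0.12 (adjusted p = 0.00465) on casein and Uqcrfs1 of complex III 1.01 ± 0.21 (adjusted p = 0.00788). Mitochondrial stress signalling genes did not pass on casein (0 of 7, with 1 at an unadjusted p under 0.05) or on elemental amino acids (0 of 7, with 3). The transcription factors Atf4 and Atf5 passed in the averaged effect, with 0.28 ± 0.08 (adjusted p = 0.0240) and 0.49 ± 0.14 (adjusted p = 0.0388). Of 9 cytosolic heat shock genes, 0 passed on casein, 0 of them at an unadjusted p under 0.05, with a median of -0.17, and 0 passed on elemental amino acids, where 1 was higher and 1 lower at an unadjusted p under 0.05 and the median was -0.04. Hsp90aa1 alone of those passed in the averaged effect, with 0.25 ± 0.08 (adjusted p = 0.0467). The median over all genes was -0.02 on elemental amino acids and -0.06 on casein.

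**Figure D4:**
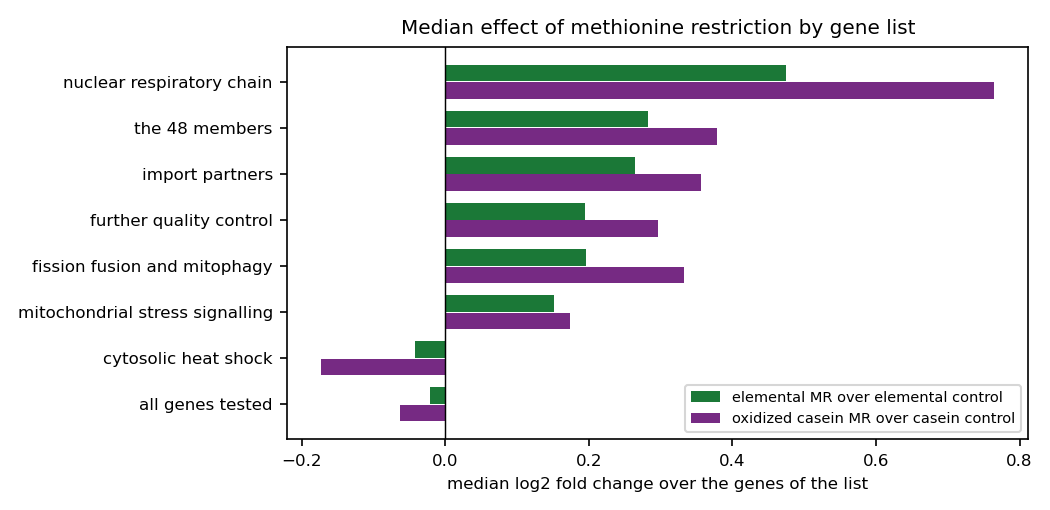
Median log2 fold change, MR over control, for the 48 members, 6 lists of genes by function and all 15176 genes tested, on elemental amino acids (upper bars) and on casein (lower bars). Among the lists plotted, the respiratory chain subunits have the largest medians, 0.47 and 0.77, followed by the members with 0.28 and 0.38, and cytosolic heat shock genes lie below 0, as does the median of all genes.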

How the data were processed

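The authors deposited a table of raw read counts per Ensembl gene for 24 QuantSeq libraries, a kit that reads the 3′ end of each transcript, and a normalized signal table, which equals those counts divided by a size factor per library. Builds GRCm38 and mm10, with DESeq2 1.18.1 under R 3.4.3, appear in the submitters' processing notes. How reads were aligned, by what program they were counted and with which strand option is not given in the sources used here. Genes with fewer than 72 reads in all are not listed in the deposited count table.

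For the tests, counts entered edgeR 4.0.16 under R 4.3.3 (filterByExpr, TMM scaling, robust quasi-likelihood fit with 1 mean per diet over 24 libraries), and p-values were adjusted by Benjamini-Hochberg over 15176 genes. Levels are CPM with TMM-scaled totals, and ± after a log2 fold change is its standard error. Alternatives were DESeq2 1.42.0, limma voom 3.58.1, other scalings and filters, lymph node and muscle splits, and leaving out each library. All 24 libraries were left out in turn for every comparison, those outside its groups included. Library totals of 7468336 to 19868913 reads limit the precision of low members, such as Timm8a1 with 3 to 17 reads per library. Members were chosen by the name rule, and values are given for a representative of each role. On each protein source and at matched methionine, values cover every member past the threshold, or the 3 of smallest p where none passed. In the averaged effect and the difference between the MR effects, values are given for some members only. Members and gene lists were chosen with earlier results of these data known. Gene positions and 3′ end windows of 50 bases came from GENCODE M21 (GRCm38), and promoters from RefSeq.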

Additional observations from a re-analysis of the deposited data

Results flagged for a closer look

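Among 192 groups of 6 values (48 members in 4 diets), 16 held a library that stood apart from the rest of its group, by a gap to its nearest neighbour that is wide for the group's range (Dixon's test). Chance flags about 1 in 20 groups. Oxidized casein MR library 1 was the highest of its group by such a gap for Timmdc1 (34.77 CPM, the others at most 26.3), Timm23 (3.255), Dnm1l (33.29), Hspd1 (140.0), Timm8b (121.0) and Timm10b (67.47). Oxidized casein MR library 5 was the lowest for Clpx (23.68 CPM). Casein control library 5 was the lowest for Timm44 (16.91 CPM, the others at least 30.06) and the highest for Tomm70a (70.83), Timm10 (26.77), Chchd1 (86.28) and Timm10b (67.84). Elemental control library 1 was the highest for Tomm40l (31.71 CPM), Tomm7 (369.0) and Chchd2 (3624). Elemental MR library 4 held 2653 CPM of Chchd10, where the others of its group had at most 1865. Without oxidized casein MR library 1 the count of members called on casein was 8, and without casein control library 5 it was 19. In these fits 325 of 15418 and 710 of 15258 genes were called higher.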

How the results depend on the processing

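The count of members called on elemental amino acids was 0, and became 5 with DESeq2 and 2 with a lymph node term. Over all genes, 153 of 16686 were called higher with DESeq2 and 104 of 15176 with that term. On casein the count of 13 became 23 with DESeq2, 8 with only the groups compared, 0 with only libraries with lymph node transcripts and 2 with only those without. In that order, 791 of 16686, 319 of 13814, 5 of 15644 and 75 of 15820 genes were called higher. For the averaged effect, 25 became 8 with only libraries with lymph node transcripts, where 272 of 15644 genes were called higher. For casein control against elemental control, 2 became 1 with no filter on low counts, 5 with DESeq2, 0 with only the groups compared, 4 with a lymph node term, 5 with only libraries with lymph node transcripts and 0 with only those without. Genes called lower were 83 of 16821, 368 of 16686, 2 of 14628, 269 of 15176, 161 of 15644 and 0 of 15820, in that order. Fits on subsets hold fewer libraries, and otherwise the cause was not tested. Leaving out 1 library gave 0 to 9 calls on elemental amino acids, 8 to 21 on casein, 22 to 30 in the averaged effect and 0 to 4 between the control diets. It gave 0 throughout for the difference between the MR effects and for oxidized casein MR against elemental MR. Values were followed over 84 pairs of a named member and a comparison. Only pairs called in the main fit could stop passing, and an uncalled pair kept its side by staying uncalled. Under all alternatives, 2614 values kept direction and side of the threshold, 77 passed newly, 95 no longer passed and 5 changed sign. Those 5 were on casein: Dnm1l at -0.05132 with only lymph node libraries, Tomm70a at -0.0009508 without them, and Tomm20 at -0.002523 with a lymph node term, -0.2599 with only libraries without lymph node transcripts and -0.01303 without casein control library 6, where leaving out 1 library gave -0.01303 to 0.2727. Members outside these pairs changed sign too: on elemental amino acids 43 of 48 were higher without the 2 muscle-rich libraries, against 46 with them, and between the control diets 20 of 48 were higher in libraries without lymph node transcripts, against 2 over all libraries. Without lymph node transcripts only 1 elemental MR library was left, and effects that need that group were not run there. No paired analysis was possible because replicate numbers follow accession order and the labels tie no mice across diets. Depth limits Timm23 and Timm8a1 most.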
